A study of Mus musculus with 17 samples.

Results

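The untreated colons of this series fell into 2 sets by the level of Hoxb13, a homeobox gene of the most posterior Hox group. Of the 17 colon samples, the 6 taken on day 0 were chosen by day and split by their measured value for the Hoxb13 probe set, at a log2 value of 6. There were 3 Hoxb13-high colons (9.67 and 8.98 in CD4cre replicates 1 and 2, and 7.47 in WT replicate 2) and 3 Hoxb13-low colons (2.97 in CD4cre replicate 3, and 2.98 and 3.15 in WT replicates 1 and 3). The nearest values on either side of the split were thus 7.47 and 3.15. The labels name no position along the colon, so the sets are called by their Hoxb13 level here and not distal and proximal.

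The mice were on the C57BL/6J background and all day 0 mice were without dextran sodium sulfate (DSS), an agent in the drinking water that injures the colonic epithelium. CD4cre mice (PPAR g flfl; CD4Cre+) lack the nuclear receptor PPAR gamma in T cells, because the CD4 promoter drives Cre at the thymic stage through which both CD4+ and CD8+ cells pass. WT mice carried no Cre, and by the study's methods were also PPAR g flfl. The other 11 colons were those of CD4cre mice on day 2 (n = 3) and day 7 (n = 3) and of WT mice on day 2 (n = 3) and day 7 (n = 2) of 2.5% DSS. Ages are not given in the sources used here, nor is whether an array held RNA of 1 mouse. Total RNA of tissue that the paper calls colonic mucosa, and the sample titles colon, was hybridized to Affymetrix mouse arrays. The values are log2 gcRMA values, which are adjusted for background and normalized between arrays. Background was taken as 3.38, below which lay 95% of the values of 81 probe sets whose 56 genes belong to other tissues, and 49.9% to 50.9% of the probe sets lay above it in each sample. Values in bulk tissue cannot tell fewer cells of a type from less RNA per cell.

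The colon changes along its length, and these changes are well described in mice. Near the cecum the epithelium retains some functions of the ileum, such as uptake of bile acids and metabolism of foreign compounds. Near the rectum it is known for salt and water absorption through the epithelial sodium channel and for many goblet cells. Hox genes are expressed in nested domains along the gut, and those of the last groups are confined to its hind end.

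As a check of the split, other Hox genes were compared and are given as a description only. Log2 values are given for the Hoxb13-high colons in the order CD4cre replicate 1, CD4cre replicate 2 and WT replicate 2, and for the Hoxb13-low colons in the order CD4cre replicate 3, WT replicate 1 and WT replicate 3. Hoxa13 had log2 values of 4.46, 4.40 and 4.58 in the Hoxb13-high colons, against 2.54, 3.08 and 3.05 in the Hoxb13-low colons. Hoxa9 and Hoxa10 were also higher without overlap, by 3.67 and 2.79 on the log2 scale. Hoxd8, Hoxd9, Hoxd10 and Hoxb6 had differences of -2.72, -3.05, -4.84 and -4.02. Posterior Hox genes were thus not all higher, since Hoxd10 was lower, and Hoxd13, Hoxd12, Hoxc13 and Hoxc10 had means below background in both sets. Prac1 was not analysed here. Hox genes are left out of all counts that follow.

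Because the 6 colons were split by a measured value, their differences are described with no test. A probe set was counted as apart when the 3 Hoxb13-high and the 3 Hoxb13-low colons did not overlap, the means differed by at least 1 on the log2 scale and the higher mean was above background. Of 44984 probe sets, 701 were apart (1.56%), with 367 higher (0.816%) and 334 lower (0.742%) in the Hoxb13-high colons. They stood for 267 genes that were higher and 240 that were lower, with none in both. CD4cre replicate 2 of the Hoxb13-high set stood apart by pancreatic transcripts, with a median of 12.85 for 19 genes of acinar cells, against 2.54 to 2.62 in the other 5 day 0 colons. Without that colon 386 probe sets were higher and 371 lower. With no overlap as the only rule, 6.12% of the probe sets were higher and 20.7% lower. These shares include probe sets at background in both sets and differences of any size. Differences of at least 3 on the log2 scale were found for 31 higher and 42 lower probe sets. All 3 Hoxb13-high colons were at background for 36 of the lower probe sets, and all 3 Hoxb13-low colons were so for 24 of the higher ones.

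Both sets held both genotypes, 2 CD4cre and 1 WT colon in the Hoxb13-high set and 1 CD4cre and 2 WT colons in the Hoxb13-low set. WT replicate 2 was the Hoxb13-high colon nearest the other set for 205 of the 367 higher probe sets, and it also had the lowest Hoxb13 value of its set. WT replicate 3 was the Hoxb13-low colon nearest the other set for 195 of the 334 lower probe sets. Pparg itself had log2 values of 9.82, 9.70 and 9.97 in the Hoxb13-high colons, against 10.62, 10.74 and 11.21 in the Hoxb13-low colons. Its difference of -1.03 (SE 0.18) was without overlap. The deletion is limited to T cells, so the level in mucosa does not check the genotype.

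Differences are Hoxb13-high minus Hoxb13-low on the log2 scale, with the SE of the fit (n = 3 and 3). Among the 12 genes with the largest positive differences, 4 are known as secreted proteins (Insl5, Ang4, Mptx1 and Thbs4), and 2 transfer N-acetylglucosamine to glycans (B3gnt5 and B3gnt7). The 12 genes with the largest negative differences include a pair of bile acid transporters (Slc51a and Slc10a2), a pair of peptide hormones (Nts and Iapp), the transcription factor Osr2 and the cytochrome Cyp4b1.

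**Figure D1:**
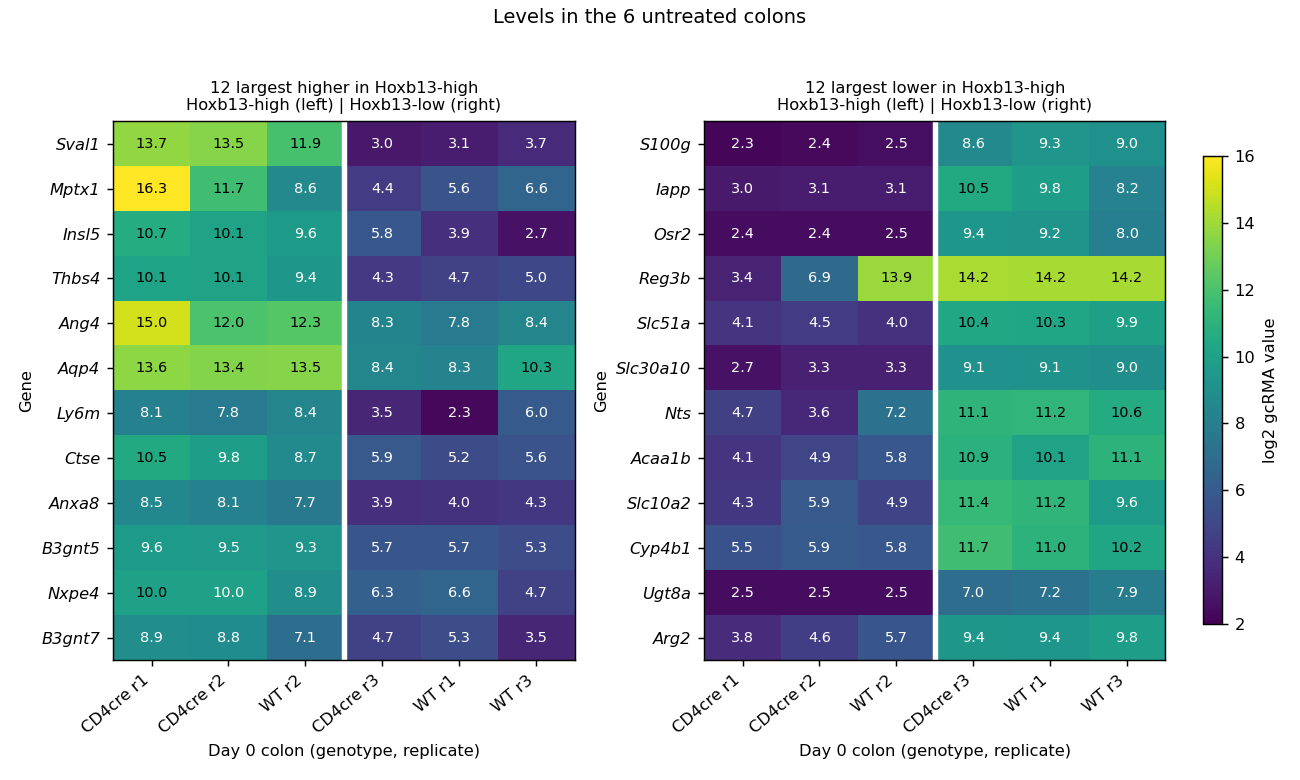
Log2 gcRMA value of each of the 12 genes with the largest positive (left) and the 12 with the largest negative day 0 difference (right) in the 6 day 0 colons, with the 3 Hoxb13-high colons left of the white line and the 3 Hoxb13-low colons right of it. Colour and printed number give the value, and Reg3b is the gene whose sets come closest, with 13.89 in WT replicate 2 of the Hoxb13-high set and 14.16 as the lowest value of the Hoxb13-low set.

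Sval1 (seminal vesicle antigen-like 1) had the largest difference of all. Its log2 values were 13.71, 13.48 and 11.95 in the Hoxb13-high colons, against 2.96, 3.08 and 3.65 in the Hoxb13-low colons. It was bright in every Hoxb13-high colon, and below background in all Hoxb13-low colons but WT replicate 3. The difference of 9.81 (SE 0.54) is thus measured against a level at or near background, where values have little meaning. Insl5, a peptide hormone made by L cells of the colon, had 10.65, 10.07 and 9.62 in the Hoxb13-high colons, against 5.82, 3.89 and 2.69 in the Hoxb13-low colons. The sets were 5.98 apart (SE 0.87), and the spread was wider in the Hoxb13-low set, where WT replicate 3 was below background. Thbs4, thrombospondin 4 of the extracellular matrix, had 10.13, 10.07 and 9.42 in the Hoxb13-high colons, against 4.33, 4.72 and 5.04 in the Hoxb13-low colons. The 6 values kept close to their set, and the difference was 5.18 (SE 0.28).

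Products of host defence were found in both directions. Ang4, a ribonuclease with antimicrobial activity, had log2 values of 15.04, 12.05 and 12.30 in the Hoxb13-high colons, against 8.32, 7.79 and 8.38 in the Hoxb13-low colons. Mptx1, a mucosal pentraxin, had 16.34, 11.70 and 8.56 in the Hoxb13-high colons, against 4.45, 5.62 and 6.57 in the Hoxb13-low colons. Both were highest in CD4cre replicate 1, and the SE of Mptx1 was large (2.12, against a difference of 6.66), with a difference of 9.58 within CD4cre mice and of 2.47 within WT mice. It was 4.59 without CD4cre replicate 1 and 8.48 without WT replicate 2. The Ang4 probe set carries the suffix of probes shared among related sequences, so it may read other angiogenins. The probe sets of Ighm, Cubn, Slc51a and Muc4 below carry similar suffixes. In the opposite direction, Reg3b, an antibacterial C-type lectin, had 3.40, 6.85 and 13.89 in the Hoxb13-high colons, against 14.24, 14.16 and 14.16 in the Hoxb13-low colons. Its difference of -6.14 (SE 2.80) was uneven, with -9.12 within CD4cre mice and -0.27 within WT mice, and leaving out WT replicate 2 gave -9.06 and CD4cre replicate 1 -3.81. Reg3g, a close relative, overlapped between the sets, with 11.36 in the Hoxb13-high WT colon and 11.27 as the lowest value of the Hoxb13-low colons. Saa3, an acute phase protein, had a difference of -2.95 (SE 1.10), which was -1.89 without WT replicate 3. Reg4, a secreted lectin of the crypt base, had one of -3.44 (SE 1.40), which was -2.09 without WT replicate 3. Retnlb, a goblet cell product that acts on bacteria, overlapped, with 14.76, 12.06 and 13.74 in the Hoxb13-high colons, against 8.11, 6.88 and 12.88 in the Hoxb13-low colons. In all, 4 of 23 measured genes of host defence were apart and higher and 3 were apart and lower. Of 18157 genes read with 1 probe set each, 1.2% were higher and 1.15% lower. The median difference of the list was -0.02, the same as for all genes.

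Of all lists, bile acid handling had the greatest share of genes apart. Bile acids enter the enterocyte through the apical sodium-dependent transporter Slc10a2, are carried by Fabp6 and leave by the basolateral transporter made of Slc51a and Slc51b, and the receptor Nr1h4 senses them. Of 9 measured genes 5 were lower and none higher, against 1.15% lower and 1.20% higher (2.35% in either direction) of 18157 genes read with 1 probe set each. The median difference was -1.61, against -0.02 for all genes. Slc51a had log2 values of 4.10, 4.51 and 3.99 in the Hoxb13-high colons, against 10.41, 10.31 and 9.93 in the Hoxb13-low colons. The sets were far apart, with a difference of -6.01 (SE 0.19), and none of the 6 values strayed toward the other set. Slc10a2 had 4.26, 5.90 and 4.86 in the Hoxb13-high colons, against 11.39, 11.16 and 9.61 in the Hoxb13-low colons. Its lowest value in the Hoxb13-low set was that of WT replicate 3, and the difference was -5.72 (SE 0.67). Fabp6, Slc51b and Nr1h4 had differences of -2.78 (SE 0.52), -1.66 (SE 0.24) and -1.61 (SE 0.19). Abcc3, a basolateral exporter, had one of -0.95, without overlap but short of the minimum. Fgf15, the enterocyte hormone that answers to bile acids in the ileum, was below background in all 6 colons.

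The metabolism of drugs and foreign compounds had the greatest number of genes apart, 12 of 37 measured, all lower, against 1.15% of all genes. The median difference was -0.57. Cyp4b1, a cytochrome P450, had log2 values of 5.51, 5.95 and 5.82 in the Hoxb13-high colons, against 11.73, 11.03 and 10.21 in the Hoxb13-low colons. The difference was -5.23 (SE 0.42). Ces1g, a carboxylesterase, had a difference of -4.51 (SE 0.19), Cyp2d26 one of -3.25 (SE 0.21) and the glucuronosyltransferase Ugt2b5 one of -2.19 (SE 0.27). Cyp3a25 had 2.41, 2.41 and 2.39 in the Hoxb13-high colons, against 8.23, 6.82 and 4.76 in the Hoxb13-low colons. It was at background in all Hoxb13-high colons and at least 9.31-fold lower there, where the bound sets each dim value to background. The remaining genes apart were Cyp2c65, Aldh1a1, the drug efflux pump Abcb1a, the quinone reductase Nqo1, Gsta4, Ces2e and Cyp3a13, with differences of -1.05 to -2.06. Cyp2e1 overlapped between the sets, with 4.05, 7.57 and 8.03 in the Hoxb13-high colons, against 3.62, 6.03 and 5.67 in the Hoxb13-low colons.

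Absorptive genes were mixed. Cubn, which encodes the vitamin B12 receptor cubilin, had 2.47, 2.47 and 2.47 in the Hoxb13-high colons, against 7.47, 7.52 and 6.55 in the Hoxb13-low colons. It was at background throughout the Hoxb13-high set and at least 13.9-fold lower there. S100g, a calcium-binding protein of enterocytes that depends on vitamin D, had 2.25, 2.36 and 2.53 in the Hoxb13-high colons, against 8.59, 9.28 and 9.04 in the Hoxb13-low colons. It too was at background in every Hoxb13-high colon, and at least 48.1-fold lower. Slc15a1, the apical transporter for small peptides, was the only 1 of 18 measured brush border genes that was higher, and Cubn the only 1 that was lower. Over all genes 1.2% were higher and 1.15% lower. Slc15a1 had 8.62, 8.46 and 8.03 in the Hoxb13-high colons, against 5.61, 5.91 and 4.90 in the Hoxb13-low colons, and a difference of 2.89 (SE 0.32). Of the lipid list, 4 of 29 genes were lower and none higher, against 1.15% and 1.2% of all genes. These were Fabp6, Fabp1 (-1.48), Apob (-1.31) and Slc27a4 (-1.23). A probe set of Mogat2, which makes diacylglycerol, was also apart (-1.94) but is not in this count. Acaa1b, a peroxisomal thiolase of fatty acid oxidation, had 4.14, 4.94 and 5.78 in the Hoxb13-high colons, against 10.93, 10.08 and 11.06 in the Hoxb13-low colons. Its difference was -5.74 (SE 0.51), and Arg2, the mitochondrial arginase, had one of -4.82 (SE 0.53). Ugt8a, which makes galactosylceramide, was at background in the Hoxb13-high colons and at least 15.9-fold lower.

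Genes of ion and water transport were apart in both directions, with 4 of 37 measured genes higher and 4 lower, against 1.2% and 1.15% of all genes. Aqp4, a water channel of the basolateral membrane, had log2 values of 13.64, 13.38 and 13.46 in the Hoxb13-high colons, against 8.40, 8.26 and 10.26 in the Hoxb13-low colons. WT replicate 3 was the nearest of the Hoxb13-low colons, and the difference was 4.52 (SE 0.59). Aqp8, another water channel, was not apart, since that colon had 12.94 and the other Hoxb13-low colons 6.52 and 6.31, against 12.61 to 12.80 in the Hoxb13-high colons. Scnn1a, a subunit of the epithelial sodium channel, had 6.88, 6.83 and 6.41 in the Hoxb13-high colons, against 5.62, 5.31 and 5.15 in the Hoxb13-low colons, with a difference of 1.35 (SE 0.19), while the probe sets of Scnn1b and Scnn1g were below background. Slc26a3, the chloride and bicarbonate exchanger, and Best2, an anion channel of goblet cells, had differences of 1.34 (SE 0.54) and 1.02 (SE 0.45). Best2 was barely apart, with 4.76, 5.39 and 3.71 in the Hoxb13-high colons, against 3.37, 3.70 and 3.71 in the Hoxb13-low colons, and did not separate the WT colons. Slc30a10, a manganese exporter, had 2.68, 3.28 and 3.29 in the Hoxb13-high colons, against 9.09, 9.12 and 8.99 in the Hoxb13-low colons. It was at background in the Hoxb13-high set and at least 51.3-fold lower. The carbonic anhydrases Car8 and Car1 and the aquaporin Aqp11 had differences of -1.50, -1.10 and -1.09.

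Of 23 measured hormones and markers of enteroendocrine cells 8 were lower and 1, Insl5, was higher, against 1.15% and 1.2% of all genes. The median difference was -0.09. Nts, neurotensin, had log2 values of 4.66, 3.62 and 7.23 in the Hoxb13-high colons, against 11.10, 11.24 and 10.63 in the Hoxb13-low colons. The difference was -5.82 (SE 0.99), and WT replicate 2 was the highest of its set, without which it was -6.85. Iapp, amylin, had 3.03, 3.06 and 3.05 in the Hoxb13-high colons, against 10.53, 9.84 and 8.23 in the Hoxb13-low colons. It was below background in every Hoxb13-high colon and at least 71.0-fold lower. Sct, secretin, had 5.70, 5.49 and 6.42 in the Hoxb13-high colons, against 8.99, 8.62 and 9.88 in the Hoxb13-low colons, with a difference of -3.30 (SE 0.43). Markers shared by many endocrine cells, Chga, Chgb, Tph1 (which makes serotonin), Neurod1 and Pcsk1, had differences of -1.87, -1.33, -1.51, -1.12 and -1.09. The other L cell hormones did not follow Insl5 to this extent, with 0.90 for Pyy and -0.01 for Gcg.

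**Figure D2:**
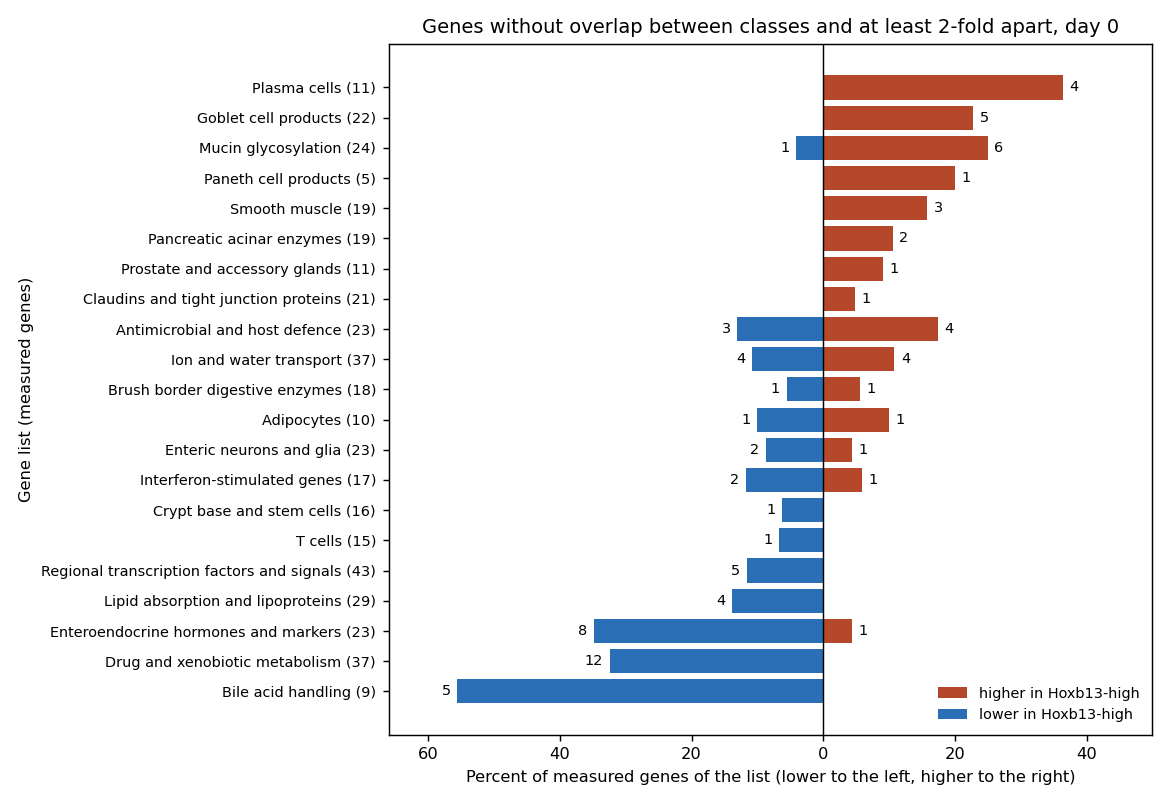
Percent of the measured genes of each list that were apart on day 0 and lower (bars to the left) or higher (bars to the right) in the Hoxb13-high colons, with the number of genes at each bar and the number measured in parentheses. Lists with no gene apart are not drawn, and bile acid handling (5 lower of 9) and plasma cells (4 higher of 11) hold the ends of the plot.

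Goblet cell genes that were apart were all higher, and so were the enzymes of mucin glycosylation but B4galnt2. Of 22 goblet cell genes 5 were higher and none lower, against 1.2% and 1.15% of all genes. Of 24 measured enzymes of mucin glycosylation 6 were higher and 1, B4galnt2, was lower. The medians of these lists were 0.27 and 0.23. Muc2, the main gel-forming mucin, had 15.61 to 15.65 in the Hoxb13-high colons, against 15.47 to 15.61 in the Hoxb13-low colons. The membrane mucin Muc4 had 13.23, 13.25 and 13.19 in the Hoxb13-high colons, against 11.46, 11.67 and 11.92 in the Hoxb13-low colons, with a difference of 1.54 (SE 0.12). Clca1, a secreted protease of mucus, had a difference of 1.53 (SE 0.26). B3gnt7 had 8.93, 8.83 and 7.05 in the Hoxb13-high colons, against 4.68, 5.33 and 3.51 in the Hoxb13-low colons. WT replicate 2 was the lowest of its set, and the difference was 3.77 (SE 0.74). B3gnt5, which extends glycolipids, had 9.62, 9.52 and 9.30 in the Hoxb13-high colons, against 5.73, 5.73 and 5.30 in the Hoxb13-low colons, with a difference of 3.89 and the smallest SE of the 24 genes (0.16). St3gal6, Chst4, B3galt5 and B3gnt6, a sialyltransferase, a sulfotransferase and a pair of enzymes that extend O-glycans, had differences of 2.72, 1.39, 1.42 and 1.22. The goblet cell count was 3 without CD4cre replicate 1, the colon with the highest Clca1 value.

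Of the remaining genes with large positive differences, Ctse, the aspartic protease cathepsin E, had log2 values of 10.51, 9.79 and 8.69 in the Hoxb13-high colons, against 5.88, 5.20 and 5.60 in the Hoxb13-low colons. The difference was 4.10 (SE 0.51). A second Ctse probe set, also above background, did not follow, with means of 8.53 in the Hoxb13-high colons and 8.48 in the Hoxb13-low colons, which overlapped. That second probe set carries a suffix of shared sequences, so it may read other transcripts too. Anxa8, an annexin, had one of 4.06 (SE 0.25), Nxpe4 one of 3.77 (SE 0.62) and Ly6m one of 4.16 (SE 0.98). Ly6m, of the Ly6 family of surface proteins, spread over 3.53, 2.32 and 5.96 within the Hoxb13-low set, and its difference was 5.17 without WT replicate 3.

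Among 43 transcription factors and signals of regional identity, 5 were lower and none higher, against 1.15% and 1.2% of all genes. Osr2, a zinc finger transcription factor of embryonic patterning, had log2 values of 2.45, 2.45 and 2.45 in the Hoxb13-high colons, against 9.37, 9.24 and 8.02 in the Hoxb13-low colons. It was at background in all Hoxb13-high colons and at least 45.1-fold lower. Its relative Osr1 was at least 1.88-fold lower, with nearest values of 3.18 in a Hoxb13-high and 3.25 in a Hoxb13-low colon, and the T-box factor Tbx3 had 5.50, 5.55 and 5.71 in the Hoxb13-high colons, against 8.01, 7.88 and 8.25 in the Hoxb13-low colons, a difference of -2.46 (SE 0.12). Aldh1a1 and Aldh1a3, which make retinoic acid, had differences of -1.60 (SE 0.16) and -1.34 (SE 0.28). The intestinal factors Cdx1 and Cdx2, known for graded levels along the gut, had differences of -0.08 and -0.26, and Hnf4a one of -0.16.

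Promoters are shown for 4 of the 24 genes with the largest differences, since the sets were split by a homeobox gene and HOX proteins of the last groups bind a core they share with CDX proteins. The letters TTTATNG and their reverse complement CNATAAA were searched on both strands from 250 bases before to 50 bases from the annotated start of each gene in RefSeq (GRCm38.p6). Slc10a2, S100g and Thbs4 are those with a match, and Sval1, which has none, is the gene with the largest difference. Matches are in capitals.
Slc10a2 promoter, chr8:5105238-5105537, minus strand: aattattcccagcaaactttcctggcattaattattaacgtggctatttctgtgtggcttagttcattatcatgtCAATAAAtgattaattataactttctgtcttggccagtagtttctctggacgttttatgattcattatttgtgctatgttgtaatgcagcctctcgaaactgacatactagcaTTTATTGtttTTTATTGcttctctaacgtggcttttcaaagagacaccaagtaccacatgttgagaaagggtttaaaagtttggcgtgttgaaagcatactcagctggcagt
S100g promoter, chrX:162964550-162964849, minus strand: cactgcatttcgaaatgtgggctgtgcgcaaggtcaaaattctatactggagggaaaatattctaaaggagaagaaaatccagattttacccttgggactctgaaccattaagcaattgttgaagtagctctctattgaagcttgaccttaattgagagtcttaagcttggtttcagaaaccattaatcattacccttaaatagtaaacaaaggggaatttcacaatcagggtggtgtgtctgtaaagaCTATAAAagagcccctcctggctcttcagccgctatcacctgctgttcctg
Thbs4 promoter, chr13:92794769-92795068, minus strand: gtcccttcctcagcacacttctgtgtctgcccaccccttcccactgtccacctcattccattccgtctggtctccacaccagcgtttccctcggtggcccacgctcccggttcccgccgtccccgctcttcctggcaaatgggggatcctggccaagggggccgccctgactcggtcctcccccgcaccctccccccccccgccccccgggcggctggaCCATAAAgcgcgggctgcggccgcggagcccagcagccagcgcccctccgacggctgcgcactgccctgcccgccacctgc
Sval1 promoter, chr6:41951378-41951677, plus strand: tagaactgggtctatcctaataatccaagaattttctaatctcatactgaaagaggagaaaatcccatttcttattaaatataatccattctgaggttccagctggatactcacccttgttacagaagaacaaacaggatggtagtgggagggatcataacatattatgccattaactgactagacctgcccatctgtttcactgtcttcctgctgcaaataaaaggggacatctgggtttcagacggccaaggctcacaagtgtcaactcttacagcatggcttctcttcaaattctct
Slc10a2 holds 3 matches, and the match of S100g contains the letters TATAAA of a TATA box. Of the 12 genes with the largest positive differences 9 were in the table of promoters and 1 had a match, and of the 12 with the largest negative differences 10 were there and 2 had a match, against 12.5% of 27025 genes. A match is a string of letters and not a site of binding.

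Genes of other cell types also differed between the sets, and smooth muscle genes were bright in tissue that the paper calls colonic mucosa. Of 11 measured genes of plasma cells 4 were higher and none lower, against 1.2% and 1.15% of all genes. Ighm, the heavy chain of IgM, had log2 values of 11.16, 10.70 and 10.91 in the Hoxb13-high colons, against 8.86, 7.29 and 7.87 in the Hoxb13-low colons. The difference was 2.91 (SE 0.43), but another of its probe sets had -0.30. Mzb1, Pou2af1 and Jchain, of antibody-secreting cells, had 2.10, 1.48 and 1.03. Of 19 genes of smooth muscle 3 were higher (Synm, Pln and Cnn1, by 1.51, 1.37 and 1.37) and none lower, against the same shares. At any size of difference 12 were higher without overlap, against 8.27% of all genes, which include those at background. The mean of the list was 11.54 to 11.73 in the Hoxb13-high colons, against 11.03 to 11.27 in the Hoxb13-low colons. Ano1, a chloride channel of the pacemaker cells of the gut, had a difference of 1.61 (SE 0.36). Kit, also a gene of these cells, had one of -0.39 and overlapped between the sets. The neuronal genes Calb2 and Nefl had -1.23 (SE 0.25) and -1.11 (SE 0.44), but another Nefl probe set had -0.49 and overlapped. Vip, Gal, Uchl1, Prph and S100b, also of the list of enteric neurons and glia, overlapped as well. Gzma, a granzyme of cytotoxic lymphocytes, was at background in the Hoxb13-high colons and at least 3.09-fold lower. Other genes of T cells and cytotoxic cells did not all follow. Within CD4cre and within WT mice Gzmb had -1.16 and -0.04, Thy1 -0.97 and -0.50, and Cd3d -0.68 and -0.19. Cd8a had -0.15 and -0.04, and Cd28 had 0.25 and 0.47. The interferon-induced Ifit1 and Irf7 were lower, with -2.32 (SE 0.42) and -1.09 (SE 0.20), while Mx1 was higher, with 1.21 (SE 0.62). No other measured gene of the interferon list was apart, and 2.35% of all genes were apart in either direction. Ifit3 had -0.998 without overlap but short of the minimum, while Oas1a, Oas2, Gbp3 and Ifit2 overlapped, with -0.11, -0.06, -0.02 and 0.06. No gene of proliferation (25 measured), fibroblasts (26), endothelium (14), B cells (12), macrophages (21) or neutrophils (14) was apart. The part of muscle and plasma cells in the differences above was not tested.

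Genes of the pancreatic list were left out of the 24 largest differences. Of the 19, Sycn and Cela1 were apart, against 2.35% of all genes in either direction. Cela1, an elastase, had a difference of 2.42 (SE 0.93), which was 1.41 without CD4cre replicate 2. Sycn, a protein of secretory granules, had log2 values of 14.01, 14.19 and 12.80 in the Hoxb13-high colons, against 11.34, 9.49 and 10.79 in the Hoxb13-low colons. It was high in all 3 Hoxb13-high colons, with a difference of 3.12 (SE 0.64). Spink1, a trypsin inhibitor that is not in this list, had 13.23, 13.16 and 12.42 in the Hoxb13-high colons, against 10.28, 10.25 and 9.54 in the Hoxb13-low colons. Its difference was 2.91 (SE 0.32). It was read in a list of prostate and accessory glands, in which no other gene was apart.

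The differences were then followed in the 11 colons on days 2 and 7, which the split did not use. By the same level of 6, 7 of them were Hoxb13-high, all 6 on day 2 and CD4cre replicate 2 on day 7, and the 4 Hoxb13-low colons were all of day 7. Day and Hoxb13 level therefore went together, and only CD4cre mice on day 7 held both sets. The median of 14 genes of neutrophils was also highest in CD4cre day 7 replicate 2, at 4.09, against 3.22 and 3.04 in replicates 1 and 3 and at most 2.88 in the other colons. Smooth muscle genes moved with Hoxb13 as well, with medians over 19 genes of 12.31 to 12.66 in the 7 Hoxb13-high colons, against 11.63 to 11.97 in the 4 Hoxb13-low colons, and within CD4cre day 7 of 12.66 in replicate 2, against 11.63 and 11.89 in replicates 1 and 3. The plasma cell median was 8.02 in that replicate 2, against 7.18 and 5.83, but over all 11 colons the sets overlapped. The part of these cell types in what follows was not tested.

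Of the 12 genes with the largest positive differences, 10 were higher in the 7 Hoxb13-high than in the 4 Hoxb13-low colons without overlap, and of the 12 with the largest negative differences 10 were lower, against 1.48% and 1.59% of all probe sets. The genes that overlapped were Ang4, Ly6m, Cyp4b1 and Iapp. Sval1 had log2 values of 13.05 to 14.86 in the 7 Hoxb13-high colons, against 6.77 to 9.24 in the 4 Hoxb13-low colons. These low values were all above those of day 0, where the Hoxb13-low colons had at most 3.65. Insl5 had 10.36 to 11.66 in the 7 Hoxb13-high colons, against 2.55 to 4.49 in the 4 Hoxb13-low colons. Osr2 had 2.32 to 2.46 in the 7 Hoxb13-high colons, against 7.29 to 8.83 in the 4 Hoxb13-low colons. For both genes a gap of more than 4 on the log2 scale lay between the sets. Slc51a had 3.66 to 4.72 in the 7 Hoxb13-high colons, against 8.44 to 9.79 in the 4 Hoxb13-low colons. Nts had 2.53 to 8.59 in the 7 Hoxb13-high colons, against 9.44 to 11.05 in the 4 Hoxb13-low colons, a narrower gap, and Thbs4 had 9.73 to 11.34 in the 7 Hoxb13-high colons, against 4.57 to 6.34 in the 4 Hoxb13-low colons. Iapp overlapped through CD4cre day 2 replicate 1, which had 9.93 and a pancreatic median of 12.51. On day 0, CD4cre replicate 2 had a pancreatic median of 12.85 with Iapp below background. A link between Iapp and pancreatic transcripts was not tested.

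**Figure D3:**
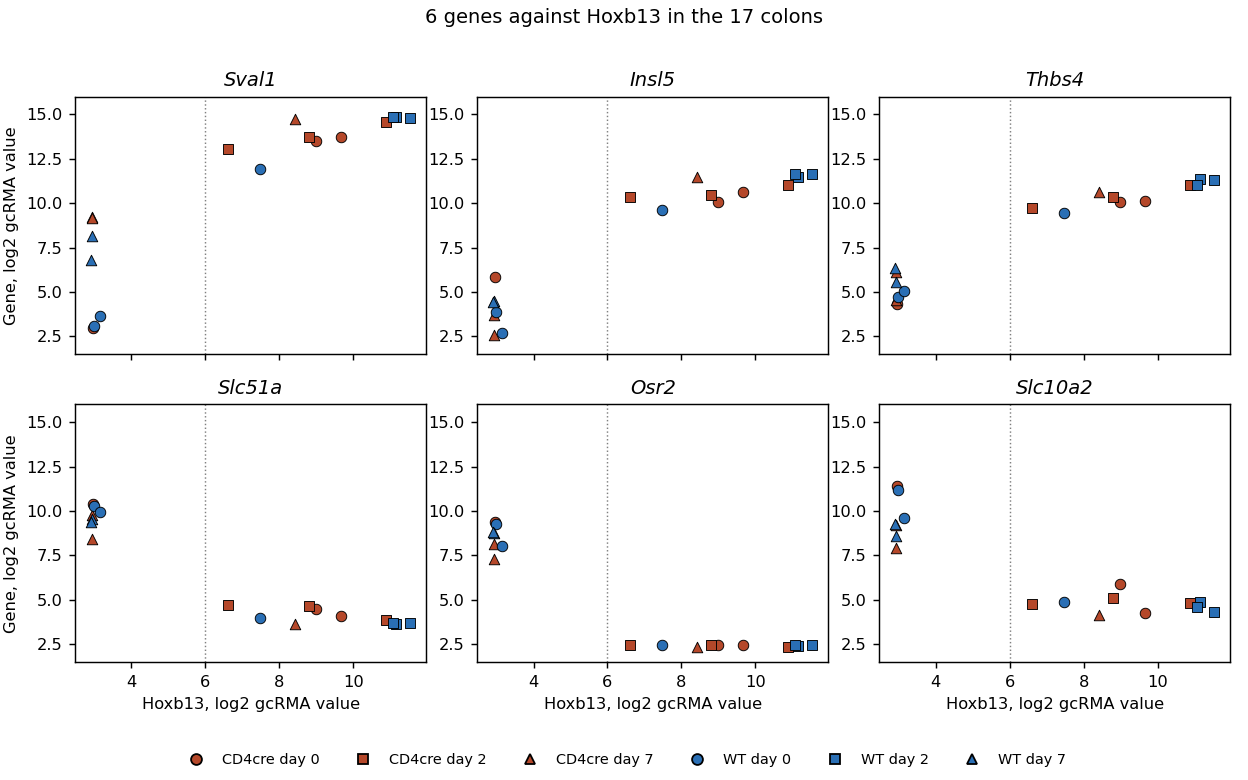
Log2 gcRMA value of 3 genes higher (top row) and 3 genes lower in the Hoxb13-high colons (bottom row) against that of Hoxb13 in each of the 17 colons, with colour for genotype and shape for day. The dotted line marks a Hoxb13 value of 6, and in each panel the colons right of it do not overlap with those left of it.

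In CD4cre mice on day 7, replicate 2 lay beyond both other replicates in the direction of day 0 for all 12 genes with the largest positive and all 12 with the largest negative differences, against 26.8% and 51.1% of all probe sets in these directions. Slc51a had 3.66 in replicate 2, against 8.44 and 9.79 in replicates 1 and 3. Insl5 had 11.46 in replicate 2, against 2.55 and 3.69 in replicates 1 and 3. Of all probe sets apart on day 0, 77.1% of the 367 higher and 84.1% of the 334 lower ones lay beyond in the same direction. This sets 1 colon against 2, and the neutrophil, smooth muscle and plasma cell medians given above were highest in the same colon of the group.

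For each colon, the 701 probe sets were also read against the midpoint of their day 0 means. On days 2 and 7, 71.8% to 87.3% of them lay on the Hoxb13-high side in the 7 Hoxb13-high colons, against 17.5% to 34.1% in the 4 Hoxb13-low colons. The values nearest the middle were those of CD4cre day 7, with 71.8% in replicate 2 and 34.1% in replicate 1.

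**Figure D4:**
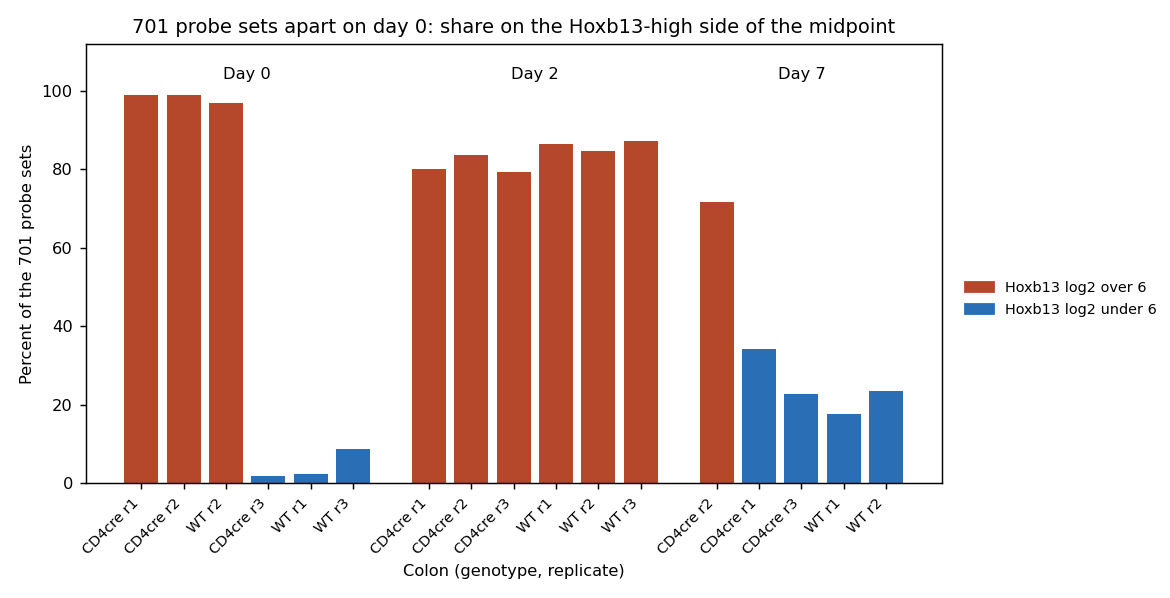
Percent of the 701 probe sets apart on day 0 that lay on the Hoxb13-high side of the midpoint of the day 0 means in each of the 17 colons, by day, with Hoxb13-high colons left of Hoxb13-low colons. The day 0 colons define the midpoint, so only the bars of days 2 and 7 are independent of the split, where the Hoxb13-high colons reach 71.8% or more and the Hoxb13-low colons 34.1% or less.

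To set Hoxb13 apart from day and genotype, limma was fitted over the 11 colons with a mean for each of the 4 groups and the log2 value of Hoxb13 as a number. The slope is the log2 change per log2 unit of Hoxb13, and p-values are two-sided and adjusted by Benjamini-Hochberg. Of 44984 probe sets, 161 passed at an adjusted p under 0.05 (0.358%), 65 with a positive slope (0.144%) and 96 with a negative one (0.213%). Before adjustment, p was under 0.05 for 8674. Of the 701 probe sets apart on day 0, 24 passed in the same direction (3.42%) and none in the opposite one. Of the 23020 probe sets above background in either day 0 set, which include the 701, 143 passed in either direction. Read with 1 probe set per gene, 0.457% of 18157 genes passed, 0.149% with a positive and 0.308% with a negative slope. The slope had the sign of the day 0 difference for 87.3% of the 701, against 68.0% of all probe sets and 58.6% of those above background.

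The 10 largest positive slopes that passed came from 8 genes. Mptx1 had a slope of 1.42 (SE 0.15, adjusted p = 0.0372), the steepest that passed. Tgm3, a transglutaminase, passed with both probe sets, at 1.03 (SE 0.07, adjusted p = 0.0241) for the first. In CD4cre mice on day 7 that probe set had 7.29 in replicate 2, against 1.75 and 1.76 in replicates 1 and 3. Atp12a, a proton and potassium pump known from the distal colon, had a slope of 0.85 (SE 0.12, adjusted p = 0.0488), though on day 0 its sets overlapped. Ggh, a folate hydrolase, had the lowest adjusted p of those also apart on day 0 (0.0107), with a slope of 0.51 (SE 0.03). Nxpe4, Frzb, which binds Wnt proteins, and Sycn passed with slopes of 0.72, 0.68 and 0.63. Ctse passed with a slope of 0.54 (SE 0.04, adjusted p = 0.0269). Its second probe set, with a suffix of shared sequences, had a slope of 0.00 (adjusted p = 0.9995). Nt5e, which makes adenosine at the cell surface, and the calpain Capn13 had slopes of 0.49 and 0.55. The channels Best2 and Scnn1a passed as well, with slopes of 0.40 (adjusted p = 0.0439) and 0.15 (adjusted p = 0.0449). With Atp12a, 3 of the 37 measured genes of ion and water transport were thus positive and none negative, against 0.149% and 0.308% of all genes. This count reads 1 probe set per gene. Another probe set of Aqp11, not the one given for day 0, passed with a negative slope, and did so in 4 of 16 settings of the fit.

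On the negative side, Vnn1, a pantetheinase of the enterocyte surface, had a slope of -0.54 (SE 0.07, adjusted p = 0.0461), and on day 0 its log2 values were 4.42, 5.55 and 6.26 in the Hoxb13-high colons, against 10.04, 9.83 and 8.87 in the Hoxb13-low colons. Sct had a slope of -0.53 (SE 0.04, adjusted p = 0.0269). In CD4cre mice on day 7 it had 4.78 in replicate 2, against 7.44 and 7.35 in replicates 1 and 3. Slc35d1, a carrier of nucleotide sugars, and the lipid genes Mogat2, which makes diacylglycerol, and Slc27a4, a fatty acid transporter, passed with slopes of -0.40, -0.37 and -0.21. Cda (cytidine deaminase), Slc16a5 and Epha1 had slopes of -0.49, -0.32 and -0.28. Of the 29 measured genes of the lipid list 3 (Fabp2, Slc27a4 and Acsl5) were negative and none positive, against 0.308% and 0.149% of all genes. The Mogat2 probe set given above is not in this count. Fabp2, a fatty acid carrier of enterocytes, passed with -0.37 (adjusted p = 0.0461), while on day 0 the sets did not differ beyond their spread (14.14, 14.43 and 14.36 in the Hoxb13-high colons, against 14.21, 14.04 and 14.61 in the Hoxb13-low colons). Of the 24 genes with the largest day 0 differences 3 passed with the probe set used on day 0 (Mptx1, Ctse and Nxpe4). B3gnt5 passed with its second probe set, at a slope of 0.52 (adjusted p = 0.0461). Others did not pass, with an adjusted p of 0.0649 for Sval1, 0.103 for Insl5, 0.0926 for Slc51a and 0.127 for Osr2. No gene of bile acid handling or drug metabolism passed.

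**Figure D5:**
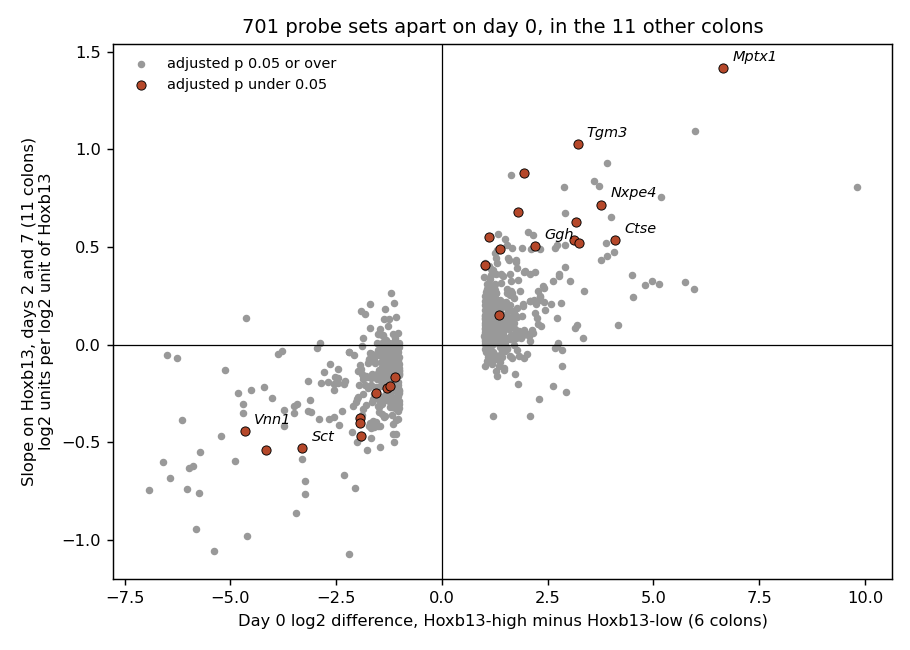
Slope on Hoxb13 in the 11 colons on days 2 and 7 (log2 units per log2 unit of Hoxb13) against the day 0 log2 difference, Hoxb13-high minus Hoxb13-low, for the 701 probe sets apart on day 0. The 24 probe sets with an adjusted p under 0.05 are drawn in red, and 87.3% of the points have the same sign on both axes.

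These slopes rested on few colons. Over 16 settings of the fit, the first Tgm3 probe set passed in 10, and Ctse and Sct in 9. Mptx1 and Nxpe4 passed in 5, and Atp12a, Fabp2 and the Vnn1 probe set given above in 4. Without CD4cre day 7 replicate 2, the only Hoxb13-high colon in a group with both sets, 9 probe sets were positive and 5 negative, 3 of the 161 passed again, and the sign was that of day 0 for 61.5% of the 701, against 66.6% of all probe sets. Without CD4cre day 7 replicate 3, or without any 1 of the 5 WT colons, at most 13 probe sets were positive and 11 negative, and the sign followed day 0 for 83.5% to 87.6% of the 701. Without CD4cre day 2 replicate 1 there were 1358 positive and 685 negative, and without replicate 3 of that group 1433 and 1458.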

How the data were processed

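Colonic RNA from 17 samples of mice was measured on Affymetrix arrays. Per the labels and the paper's methods, the authors made the deposited log2 values in R 2.9.0 by gcRMA (probe signals corrected for background by base content, quantile normalized and summarized by probe set). No depth applies, and the number of arrays limits the precision. Of 45101 probe sets 64 controls were left out, and probe sets were named from the platform annotation (34945 had 1 gene, 932 several and 9160 none). Where a gene had several probe sets, the one with the highest mean was used. The 6 day 0 samples were divided by Hoxb13. Day 0 means and SEs came from limma 3.58.1 (R 4.3.3), and no p was taken from them. The association in the 11 other samples was tested with limma on 45036 probe sets, Hoxb13 itself left out, with Benjamini-Hochberg adjustment at 0.05, and was tested on simulated data. Nothing states that the samples are separate mice, so p-values measure the spread between samples, which may be technical. The genes named are the 12 largest day 0 differences in each direction, up to 5 non-overlapping members of each list with the largest differences, the 10 largest slopes that passed in each direction, Pparg, and other list members chosen after their values were seen. Alternatives were other probe sets, a lower minimum difference, other models and each sample left out. The members and lists were chosen with earlier results of these data known.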

Additional observations from a re-analysis of the deposited data

How the results depend on the processing

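Leaving out each colon, which also loosens the rule of no overlap, gave 352 to 470 higher and 324 to 420 lower day 0 probe sets. The lists then held 5 to 6 lower genes of bile acid handling, 11 to 12 of drug metabolism and 6 to 9 of enteroendocrine cells, and 3 to 6 higher genes of goblet cells, 4 to 6 of mucin glycosylation, 3 to 4 of plasma cells and 3 to 4 of smooth muscle. A minimum difference of 1.5-fold gave 905 higher and 786 lower probe sets and 7 higher smooth muscle genes. Of 94 other probe sets of the 116 genes, 61 were above background and 59 had the same direction, though that of Ctse by 0.05 against 4.10. The exceptions were Ighm, with -0.30, and Lyve1, with 0.18. In the association, with each colon left out, 1 to 1433 probe sets were positive and 0 to 1458 negative, 0 to 164 of the 701 passed in the day 0 direction, and 61.5% to 88.6% kept its sign. Hoxb13 as a class gave 2669 positive and 1794 negative (233 passed in the day 0 direction), no group terms 338 and 349 (192), and a trended, robust variance 7 and 2 (6). Samples with the same replicate number were not paired (15 of 40 pairs correlated over 0.1, from -0.42 to 0.48), and with the replicate number as a block 0 were positive and 0 negative (0). A pair of alternatives was chosen after seeing the data, namely day and genotype terms with Hoxb13 as a class, with 2694 and 1998 (221), and leaving out the 2 day 2 colons with pancreatic transcripts, with 84 and 32 (8). The cause of these changes was not tested. Precision is limited by 3 arrays a set on day 0, and after DSS by the single group that held both sets.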
